A study of Mus musculus with 6 samples.

Results

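Matrix metalloproteinases (MMPs), the ADAM and ADAMTS proteases, the ADAMTS-like proteins and the tissue inhibitors of metalloproteinases (TIMPs) were examined in mouse 3T3-L1 cells, a line of embryonic fibroblasts that turns into fat-storing cells under hormonal induction. Members were all 84 genes of the deposited table of 46095 whose symbol is Mmp, Timp, Adam, Adamts or Adamtsl followed by a number and at most 1 letter. The rule uses names and no values, but this family was chosen with earlier results of these data known. Messenger RNA was sequenced from 3 untreated samples and from 3 samples given 0.125 μg/mL of flavonoids of Smilax glabra, a vine of traditional Chinese medicine. All 6 were labelled adipocytes and taken 8 days after differentiation, and the length of the exposure is not given in the sources used here. Values are FPKM, fragments scaled by transcript length and by library size, so they can be set side by side between genes. The labels do not say whether the replicates were grown as separate cultures, so every p-value here refers to the spread among these libraries, and that spread may be technical.

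MMPs are zinc proteases that cut collagens, gelatin and other matrix proteins; most are secreted as inactive precursors and some are anchored in the plasma membrane. ADAMs are membrane proteins, several of which cut growth factors and receptors off the cell surface, while ADAMTS enzymes are secreted and process proteoglycans and procollagens. ADAMTS-like proteins resemble the non-catalytic part of the ADAMTS enzymes and lack the protease domain, and TIMPs bind and block the active sites of these proteases. In fat tissue these enzymes are known for remodelling the pericellular collagen network as fat cells enlarge, with the membrane protease encoded by Mmp14 as a known requirement.

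Among the members, 27 were listed at 0 in all 6 samples, 19 had a mean above 0 and under 0.5 FPKM, and 32 reached the mean of 1 FPKM required for testing. Mmp9 was the 1 member between 1 and 1.5 FPKM, and Adam1a, Adam8, Adamts6, Adamts15, Mmp13 and Mmp27 were the 6 between 0.5 and 1 FPKM. Of the 8 listed adipocyte markers 3 reached 1 FPKM (Fabp4, Pparg and Lpl), and Adipoq, Plin1, Cd36, Slc2a4 and Cidec did not, whereas all 6 preadipocyte and fibroblast markers did. Of these 6, Thy1 fell, with 215 ± 4.68 FPKM untreated and 137 ± 9.32 FPKM treated (limma adjusted p = 0.0118; SD over 3 samples), and Dlk1, Pdgfra and Col1a1 had all treated values below all untreated ones with adjusted p-values of 0.0871, 0.115 and 0.166. Pdgfrb had the opposite sign, at 94.1 ± 20.7 FPKM untreated and 104 ± 10.7 FPKM treated. Col1a2 had a lower treated mean (1359 ± 214 and 1114 ± 93.4 FPKM), and both genes had overlapping groups. The summed level of the 6, for the most part Col1a1 and Col1a2, was 2467 to 3312 FPKM untreated and 2068 to 2396 FPKM treated. The tested adipocyte markers were mixed in sign, with overlapping groups and no call. Fabp4 measured 219 ± 38.1 FPKM untreated and 170 ± 22.5 FPKM treated (limma adjusted p = 0.199). Pparg measured 10.8 ± 1.26 and 11.6 ± 0.80 FPKM (0.669), and Lpl 163 ± 25.3 and 262 ± 73.0 FPKM (0.101). The part of these markers in the members' differences was not tested. Recovered fragments came to 21952064 to 26355863 per library. The untreated libraries differed from one another in how values ran over gene length, with slopes of -0.12, 0.02 and 0.16 log2 units per doubling of length in replicates 1, 2 and 3, against -0.01 to -0.03 in the treated libraries.

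Flavonoid-treated cells had more Mmp2 and Mmp11 RNA and less Mmp9, Mmp17, Adam33, Adamts9, Adamts10 and Adamtsl4 RNA. Of 32 tested members 2 rose and 6 fell (adjusted p under 0.05 by Benjamini-Hochberg over all 11464 genes tested, from limma fitted to log2 of FPKM plus 1). That is 6.25% and 18.8% of the tested members, where 4.86% of all genes tested rose, 5.13% fell and 9.99% did either. Past 2-fold on that scale were 1 of the 32 members upward and 3 downward, against 0.488% and 1.02% of all genes. Mmp9, counted among the 6 and the 3, reached the mean of 1 FPKM through the untreated group alone. Mmp13, with higher treated values, stayed under that mean and is in none of these counts. The median log2 change was -0.30 over tested members and -0.02 over all genes tested, and 24 of the 32 estimates were negative. In 17 of the 32 members (53.1%) all 3 treated values lay below all 3 untreated values, against 17.3% of all genes. In 5 members (15.6%) they lay above, near the 17.0% of all genes. The family was chosen with earlier results of these data known, so these shares only describe its members. The counts leaned on single libraries: without untreated replicate 1 they were 2 higher and 10 lower, without untreated replicate 2 Mmp11 alone was called, and without untreated replicate 3 they were 4 and 5. Without flavonoids replicates 1, 2 and 3 in turn they were 1 and 1, 1 and 3, and 2 and 3. The counts over all genes moved too. They were 875 and 827, 64 and 76, and 633 and 719 without untreated replicates 1, 2 and 3 (11388 to 11445 genes tested). Without flavonoids replicates 1, 2 and 3 they were 94 and 119, 153 and 207, and 243 and 273 (11459 to 11516 tested). With each library's trend over gene length removed, 4 members were higher and 10 lower, the 8 above among them. Of all 11464 genes, 1375 were higher and 1139 lower in that setting.

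**Figure D1:**
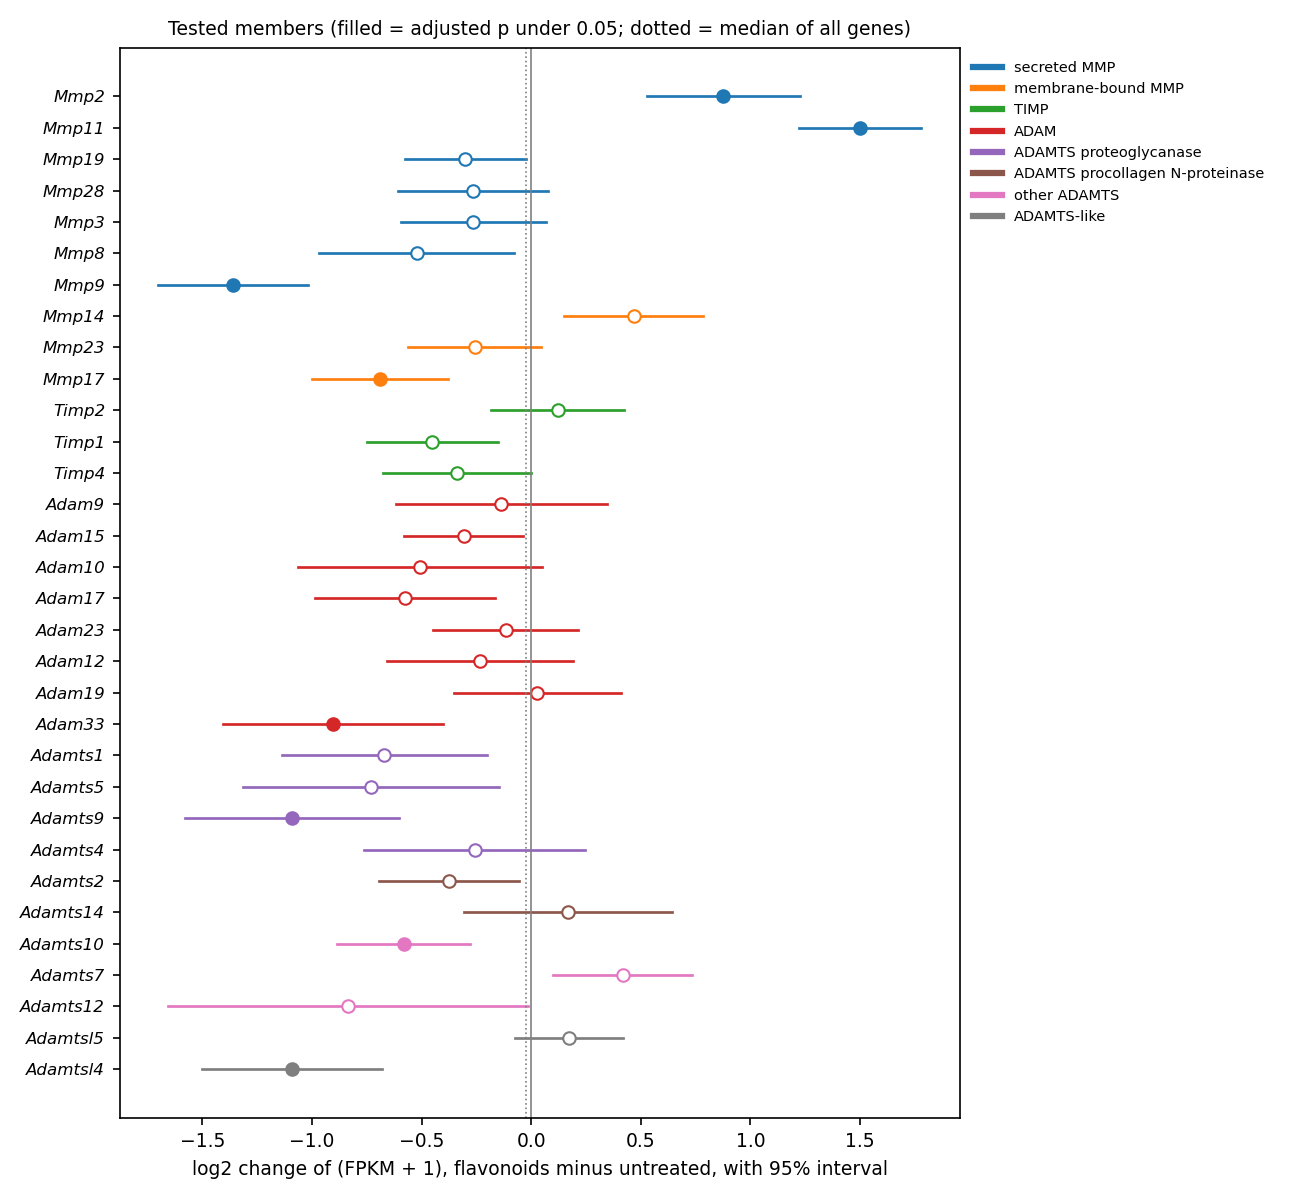
Fitted log2 change of FPKM + 1, flavonoids minus untreated, for the 32 tested members (points, coloured by class) with 95% intervals (lines), 3 samples per group. Filled points passed an adjusted p of 0.05 (2 higher, 6 lower), and 24 of the 32 points lie left of 0.

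Because the members include a run of neighbouring Mmp genes with shared promoter letters, 5 promoters are printed here for reference: 4 of the run, and that of Mmp11, the tested member with the largest fitted increase. Each is the 300 bases from 250 before to 50 after the start site, 5′ to 3′ on the gene's strand, from RefSeq on GRCm38.p6. Capitals mark TGANTCA, the letters bound by AP-1, a transcription factor made of Jun and Fos proteins and long known as a regulator of MMP genes. Windows are chr9:7272264-7272563 (plus strand) for Mmp13, chr9:7445572-7445871 (plus) for Mmp3, chr9:7558179-7558478 (plus) for Mmp8, chr9:7571146-7571445 (plus) for Mmp27 and chr10:75932453-75932752 (minus) for Mmp11.
Mmp13: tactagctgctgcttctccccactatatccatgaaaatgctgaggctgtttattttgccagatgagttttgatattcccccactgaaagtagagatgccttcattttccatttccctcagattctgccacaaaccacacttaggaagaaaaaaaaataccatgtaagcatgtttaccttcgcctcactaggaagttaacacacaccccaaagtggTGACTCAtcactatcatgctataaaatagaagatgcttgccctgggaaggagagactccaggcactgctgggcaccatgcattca
Mmp3: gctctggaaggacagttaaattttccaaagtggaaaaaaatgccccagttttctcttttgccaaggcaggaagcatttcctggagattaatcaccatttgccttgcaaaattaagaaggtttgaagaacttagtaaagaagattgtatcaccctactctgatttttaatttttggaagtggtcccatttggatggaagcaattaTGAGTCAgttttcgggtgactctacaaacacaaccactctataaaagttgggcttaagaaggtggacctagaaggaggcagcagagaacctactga
Mmp8: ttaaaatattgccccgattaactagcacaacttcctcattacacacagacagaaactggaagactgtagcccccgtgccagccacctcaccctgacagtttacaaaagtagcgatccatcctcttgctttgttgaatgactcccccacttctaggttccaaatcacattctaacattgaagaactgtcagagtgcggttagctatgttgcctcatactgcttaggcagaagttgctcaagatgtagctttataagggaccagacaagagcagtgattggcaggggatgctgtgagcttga
Mmp27: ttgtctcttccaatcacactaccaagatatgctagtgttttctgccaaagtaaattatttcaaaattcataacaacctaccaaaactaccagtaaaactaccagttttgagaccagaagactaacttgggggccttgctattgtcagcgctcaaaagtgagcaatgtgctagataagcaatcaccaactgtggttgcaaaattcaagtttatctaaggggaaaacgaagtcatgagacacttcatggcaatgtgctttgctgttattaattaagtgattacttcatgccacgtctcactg
Mmp11: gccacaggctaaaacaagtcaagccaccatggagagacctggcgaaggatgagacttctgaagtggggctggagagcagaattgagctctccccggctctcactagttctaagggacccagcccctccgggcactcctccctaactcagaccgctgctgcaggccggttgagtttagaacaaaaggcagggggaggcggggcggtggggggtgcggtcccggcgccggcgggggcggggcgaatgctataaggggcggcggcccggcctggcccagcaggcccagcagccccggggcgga

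The letters start 35 bases before the start site in Mmp13 (position -35) and at -46 in Mmp3, and are not in the other windows shown. Searched on both strands, TGANTCA was in 7.81% of the 32851 promoters of the table. It was in 2 of 24 promoters of the 21 tested members with an entry (8.33%), those of Mmp3 and Adam19, and in none of the 3 called members with an entry (Mmp11, Adamts9 and Adamtsl4). TGATGNAA, the letters of the combined C/EBP and ATF element, was in 3.97% of all promoters and in 0 of those 24. The search gives letters in a window and says nothing of binding.

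Mmp2, which encodes gelatinase A, a secreted protease of denatured collagen and basement membrane (chromosome 8, 92827291 to 92853420, GRCm38 as for all positions), was the most abundant member and ranked 62nd in mean FPKM of all 11464 genes tested. It measured 633, 635 and 730.0 FPKM in untreated replicates 1, 2 and 3 and 1165, 1133 and 1378 FPKM in treated replicates 1, 2 and 3. The groups did not overlap, and the lowest treated sample was well above the highest untreated one. Mean FPKM was 1.84-fold higher with flavonoids (666 ± 55.3 against 1225 ± 133 FPKM, SD, n = 3 per group), a log2 change of 0.88 with a standard error of 0.15 and a limma adjusted p of 0.0117. The call was lost without untreated replicate 2 (adjusted p = 0.0963), flavonoids replicate 1 (0.0619) or flavonoids replicate 2 (0.0524) and without a filter on low values (0.0585), at log2 changes of 0.84 to 0.93, within adjusted p-values of 0.000322 to 0.0963 over its 25 alternatives.

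Mmp11 encodes stromelysin 3 (chromosome 10, 75923222 to 75936496), an MMP that is activated inside the cell by furin and is known for high levels in stromal fibroblasts near tumours. It measured 70.2, 66.3 and 80.7 FPKM in untreated samples and 222, 201 and 196 FPKM in treated samples. The lowest treated value was more than double the highest untreated value. The log2 change of 1.5003 (standard error 0.12 with n = 3 per group, and limma adjusted p = 0.00155), 2.85-fold in mean FPKM, was the 6th largest increase of all genes tested. It passed the threshold under all 25 alternatives, with log2 changes of 1.43 to 1.62. Its exons share 155 bases (5.58%) with Chchd10 on the other strand, which had a mean of 0.876 FPKM. Furin, the activating protease, measured 15.5 ± 3.01 and 13.3 ± 1.65 FPKM (adjusted p = 0.467).

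Mmp9, the other gelatinase (chromosome 2, 164940780 to 164955850), moved the opposite way to Mmp2. It measured 1.94, 1.65 and 2.31 FPKM in untreated samples and 0.149, 0.176 and 0.125 FPKM in treated samples, which correspond to 138, 124 and 188 fragments and to 12, 15 and 10 fragments. Every treated value was far below the lowest untreated value. Mean FPKM was 13.1-fold lower with flavonoids; the fitted log2 change was -1.36 (standard error 0.15 with n = 3 per group, and limma adjusted p = 0.00293) with a pseudocount of 1 and -3.04 with 0.1. Mmp9 reached the mean of 1 FPKM through the untreated group alone and dropped out of the test where an untreated library was left out; in the 18 alternatives that tested it the call held. In bulk RNA, fewer cells of a type and less RNA per cell cannot be told apart. Macrophages, another known source of this enzyme, are marked by Adgre1, Ptprc, Itgam, Cd68, Csf1r and Lyz2: 2 of these 6 markers reached 1 FPKM, Ptprc was listed at 0 and Adgre1 was at or near 0 in all samples, and their sum was 3.24 to 4.47 FPKM in untreated and 3.14 to 3.79 FPKM in treated samples.

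**Figure D2:**
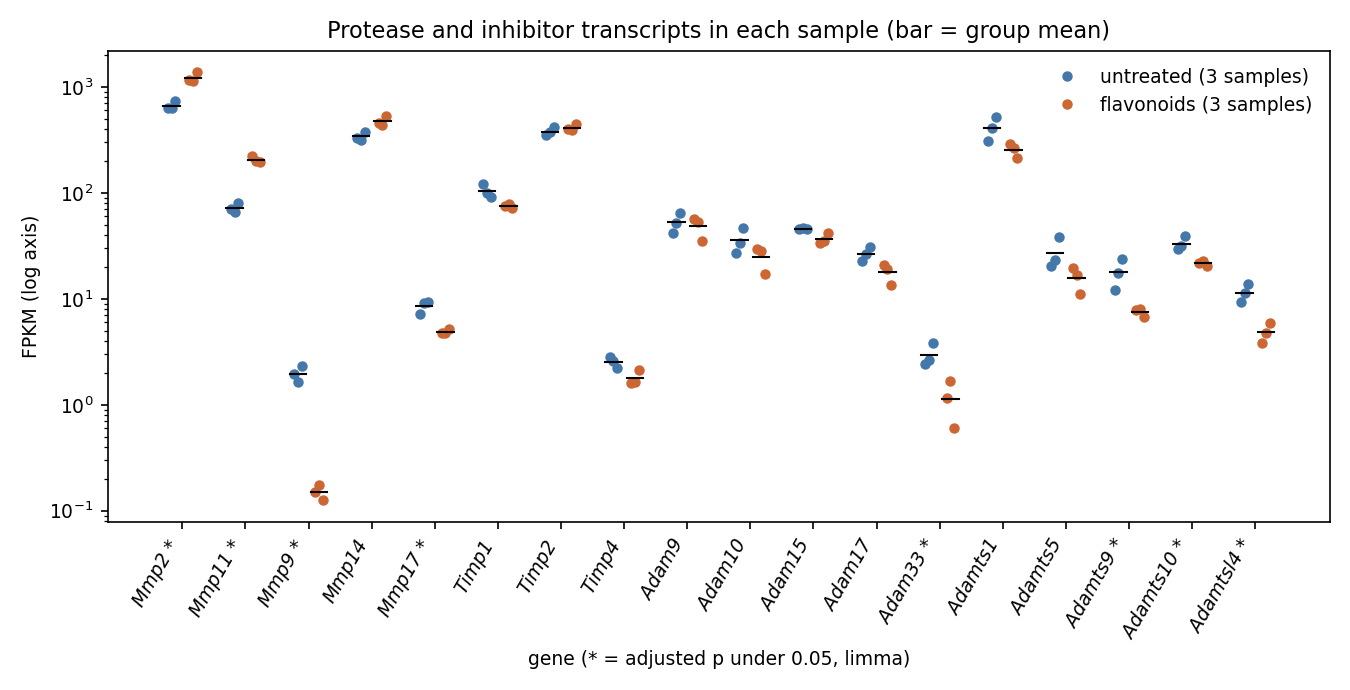
FPKM of 18 members in each of 3 untreated (blue) and 3 flavonoid-treated (orange) samples on a log axis, with group means as bars and stars at members with adjusted p under 0.05. Mmp2 lies at 633 to 1378 FPKM and Mmp9 at 0.125 to 2.31 FPKM, with the groups apart in both and in opposite order.

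Of 7 tested secreted MMPs 2 rose (Mmp2 and Mmp11), 1 fell (Mmp9) and the remaining 4 had negative estimates and did not pass the test. Mmp19, an MMP first known from synovium and blood vessels, measured 22.4, 24.6 and 22.8 FPKM untreated and 17.5, 17.5 and 21.3 FPKM treated (log2 change -0.30, 95% interval -0.58 to -0.02, limma adjusted p = 0.154). Mmp28, Mmp3 and Mmp8 had adjusted p-values of 0.302, 0.283 and 0.128. In all 4 genes the treated values lay below the untreated ones, by small margins in Mmp28 and Mmp3. Exons of Mmp19 share 789 bases (22.3%) with Tmem198b on the other strand, and without known use of strand these reads cannot be assigned with certainty.

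The clustered MMP genes lie in a run of 10 over 427.1 kb of chromosome 9 (7272514 to 7699585) with no other protein-coding gene of the annotation inside it. Of the 10, 8 carry TGANTCA in the promoter window, against 5 of the other 43 members with an entry. Little RNA came from the run: 2 reached a mean of 1 FPKM and 4 were listed at 0. Mmp3, stromelysin 1, measured 7.09, 6.15 and 5.96 FPKM untreated and 5.95, 4.33 and 5.26 FPKM treated. Mmp8, the collagenase known from neutrophils, measured 5.04, 5.14 and 5.08 FPKM and then 4.02, 3.90 and 2.09 FPKM. Mean FPKM was lower with flavonoids in both, 1.52-fold for Mmp8 and 1.23-fold for Mmp3. The lowest value was in flavonoids replicate 3 for Mmp8 and replicate 2 for Mmp3.

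Mmp13, the main interstitial collagenase of rodents, stood at the end of that run and ran the other way. It measured 0.288, 0.304 and 0.237 FPKM untreated (17, 19 and 16 fragments) and 1.64, 1.04 and 1.15 FPKM treated (110, 74 and 76 fragments). All treated samples were above all untreated ones, 4.63-fold in the mean. Its overall mean of 0.777 FPKM kept it out of the test; without the filter on low values its adjusted p was 0.0295 (limma, log2 change 0.83). Mmp27 measured 0.571 ± 0.0473 and 0.612 ± 0.128 FPKM, and Mmp1a, Mmp1b, Mmp7 and Mmp20 were listed at 0 in all 6 samples. Mmp13 and Mmp3 share the promoter letters, as do Mmp1a, Mmp1b, Mmp7 and Mmp20 at 0, while Mmp8 and Mmp27, which lack them in this window, were detected. The part of these letters in the levels was not tested.

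**Figure D3:**
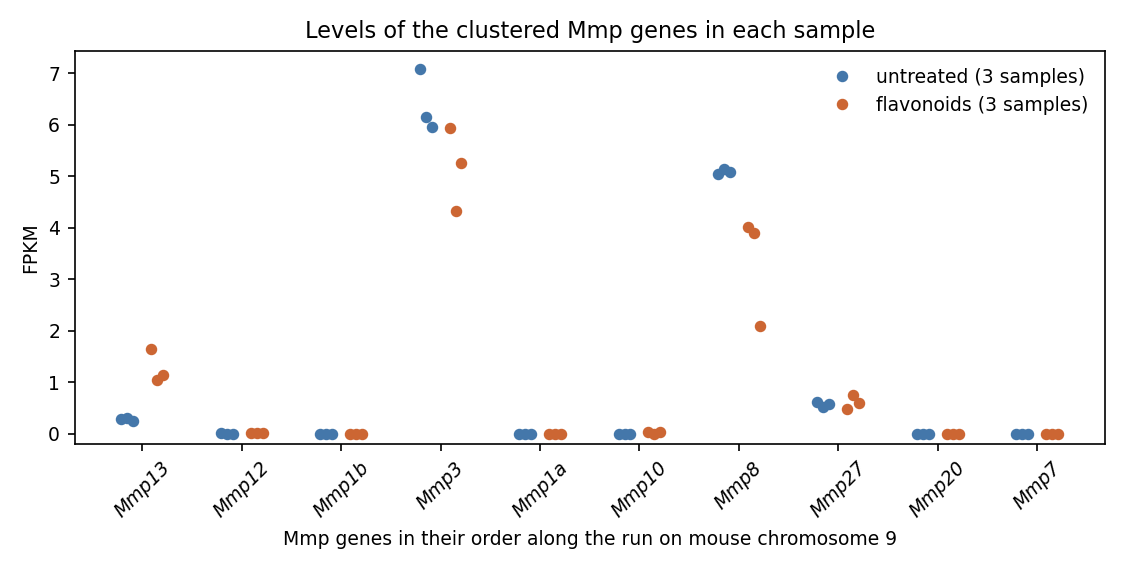
FPKM of the 10 Mmp genes of the chromosome 9 run in chromosome order, for 3 untreated (blue) and 3 treated (orange) samples. Mmp3 and Mmp8 are the most abundant, and Mmp13 is the gene whose treated values (1.04 to 1.64 FPKM) lie above its untreated values (0.237 to 0.304 FPKM) by more than 0.5 FPKM.

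Of 3 tested membrane-bound MMPs 1 fell (Mmp17) and 0 rose. The class was led by Mmp14 (chromosome 14, 54431612 to 54445364), which encodes MT1-MMP, a pericellular collagenase that also activates the Mmp2 precursor at the cell surface with Timp2 as adaptor. It measured 329.9, 318 and 377 FPKM untreated and 459.6, 433 and 527 FPKM treated. The groups did not overlap, yet the log2 change of 0.47 (95% interval 0.15 to 0.78) had a limma adjusted p of 0.0689. It passed without untreated replicate 3 (log2 change 0.54, adjusted p = 0.0213) and with the length trend removed (0.52, adjusted p = 0.0062), within adjusted p-values of 0.0062 to 0.291 over its 25 alternatives.

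Mmp17 (chromosome 5, 129584169 to 129611099) encodes MT4-MMP, which is held to the membrane by a lipid anchor. It measured 7.22, 9.05 and 9.34 FPKM untreated and 4.73, 4.76 and 5.18 FPKM treated, with no overlap. It fell by 0.69 on the log2 scale (standard error 0.14 with n = 3 per group, and limma adjusted p = 0.0173). The call was lost without untreated replicate 2 (0.114), flavonoids replicate 1 (0.0856) or flavonoids replicate 2 (0.0748), and without untreated replicate 2 also with the length trend removed (0.0575). It was lost as well with replicate number as a block (0.0515), within 0.0052 to 0.114 over its 25 alternatives. Mmp23 measured 20.6 ± 1.88 and 17.1 ± 2.32 FPKM (adjusted p = 0.258), and Mmp15, Mmp16, Mmp24 and Mmp25 stayed under 0.5 FPKM in every sample.

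None of 3 tested inhibitors passed the threshold in limma or in voom on recovered fragments, and 1 (Timp1) had an unadjusted p under 0.05. Timp2 was the most abundant and differed least. It measured 350.3, 374 and 414 FPKM untreated and 397, 392 and 447 FPKM treated, so the groups overlapped (log2 change 0.12, 95% interval -0.18 to 0.42, limma adjusted p = 0.604). Timp1, an inhibitor that is also secreted as a growth-promoting factor, measured 121, 99.9 and 91.3 FPKM untreated and 74.8, 79.4 and 71.9 FPKM treated. All treated values were below all untreated ones, and the log2 change of -0.45 (95% interval -0.75 to -0.15) had an adjusted p of 0.0645. That p was 0.019 without untreated replicate 3, 0.0139 on the TPM scale, 0.0124 after quantile normalization and 0.00294 with the length trend removed, within 0.00294 to 0.203 over its 25 alternatives.

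Timp4 measured 2.79, 2.61 and 2.20 FPKM untreated and 1.62, 1.64 and 2.15 FPKM treated (adjusted p = 0.185). Timp3, the matrix-bound inhibitor that also blocks ADAM17, was nearly absent at 0.155, 0.256 and 0.279 FPKM untreated and 0.128, 0.0564 and 0.0776 FPKM treated, which are 16, 28, 33, 15, 7 and 9 fragments, and was not tested. Timp1, Timp3 and Timp4 each lie inside a synapsin gene (Syn1, Syn3 and Syn2) on the other strand, and those hosts had mean levels of 0.173, 0.00684 and 0.63 FPKM. Of these 3 pairs, Timp3 shares the most exon sequence with its host (21.3% of its exon bases).

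Set against its inhibitor, Mmp2 RNA was 1.81, 1.70 and 1.76 times Timp2 RNA in untreated samples and 2.93, 2.89 and 3.08 times in treated samples. The corresponding ratios of Mmp14 to Timp2 were 0.942, 0.851 and 0.91 and then 1.16, 1.11 and 1.18. In both ratios the groups were apart, and Mmp14 went from below to above Timp2 on the FPKM scale. Ratios of FPKM compare RNA per length of transcript, not protein or activity, and were not tested.

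**Figure D4:**
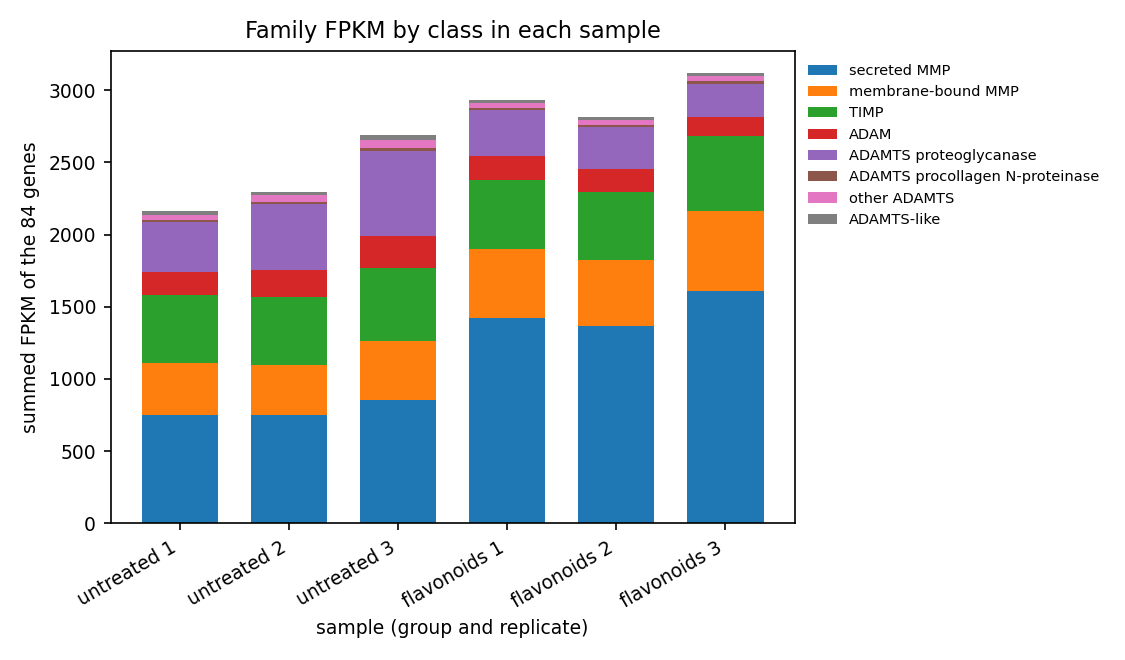
Summed FPKM of the 84 members in each sample, stacked by class. Secreted MMPs take up 31.9 to 34.6% of the sum in untreated and 48.5 to 51.7% in treated samples, and ADAMTS proteoglycanases 15.9 to 21.9% and 7.502 to 11.0%.

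Summed over the 84 members, FPKM came to 2162, 2298 and 2687 in untreated and 2934, 2818 and 3118 in treated samples. Secreted MMPs went from 784 ± 63.5 to 1467 ± 127 FPKM, for the most part Mmp2. The TIMP sum was 486 ± 18.8 and 489 ± 27.9 FPKM, while the sum of the ADAMTS proteoglycanases went from 463 ± 122 to 282 ± 44.9 FPKM, for the most part Adamts1. The sums of these 2 classes of proteases rest on 1 abundant gene each. In the TIMP sum the Timp2 mean was higher with flavonoids (379 and 412 FPKM) and the Timp1 mean lower (104 and 75.3 FPKM). All sums are given as descriptions, with no test.

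Of 33 ADAM genes 17 were listed at 0, among them Adam2 and Adam3, known from sperm, and 8 were tested. Adam33, which encodes an ADAM known from airway fibroblasts and smooth muscle (chromosome 2, 131050591 to 131063814), was the member of this class that fell. It measured 2.41, 2.65 and 3.84 FPKM untreated and 1.15, 1.68 and 0.601 FPKM treated (247, 287 and 450 against 133, 206 and 69 fragments). The groups did not overlap, and the treated samples differed widely among themselves. It fell by 0.90 on the log2 scale (standard error 0.22 with n = 3 per group, and limma adjusted p = 0.0366). Leaving out untreated replicate 2 (0.121), untreated replicate 3 (0.0609), flavonoids replicate 1 (0.114) or flavonoids replicate 3 (0.104) ended the call. So did the TPM scale (0.0554), no filter (0.123) and replicate number as a block (0.108), within 0.00416 to 0.123 over the 24 alternatives that tested it. The other 7 tested ADAMs did not pass.

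The main shedding enzymes did not pass the test. Adam17, known as TACE for its release of tumour necrosis factor (chromosome 12, 21323509 to 21373632), measured 22.7, 26.3 and 31.2 FPKM untreated and 20.8, 19.0 and 13.4 FPKM treated. The groups were just apart, with a log2 change of -0.58 (95% interval -0.99 to -0.16) and a limma adjusted p of 0.0812. That p was 0.0407 without untreated replicate 1 and 0.0191 with the length trend removed, within 0.0158 to 0.232 over its 25 alternatives. Adam10, the sheddase of Notch receptors, measured 27.3, 33.4 and 46.6 FPKM and then 29.9, 28.2 and 17.0 FPKM (adjusted p = 0.224), with overlapping groups.

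Adam9, a widely expressed ADAM, had the highest mean of its class at 41.8, 51.7 and 65.1 FPKM untreated and 56.8, 52.6 and 35.2 FPKM treated. Its groups overlapped throughout (log2 change -0.14, 95% interval -0.62 to 0.34), and without untreated replicate 3 or flavonoids replicate 3 the estimate was above 0. Adam15, whose extracellular part binds integrins, measured 45.2, 46.1 and 45.6 FPKM untreated and 33.4, 35.2 and 41.9 FPKM treated (adjusted p = 0.137). Adam9, Adam10 and Adam17 had their highest untreated value in replicate 3 and their lowest treated value in replicate 3, whereas Adam15 had nearly equal untreated values. Adam8, an ADAM of myeloid cells, was under the limit for testing, at 0.882 ± 0.141 untreated and 0.36 ± 0.158 FPKM treated. In Adam17, 311 exon bases (4.35%) are shared with Iah1 on the other strand, which had a mean of 52.4 FPKM, and Adam15 shares 1263 (20.6%) with an antisense transcript.

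Adam12, Adam19 and Adam23, the last a neural ADAM without protease activity, had means of 3.18 to 12.9 FPKM untreated and 3.23 to 11.8 FPKM treated, with limma adjusted p-values of 0.463 to 0.935. Of the 32 tested members, 22 had their lowest untreated value in the library with a length slope of -0.12 and their highest in the library with 0.16. The share of all genes with this order was not counted. The 22 were 16 of the 24 members with negative estimates and 6 of the 8 with positive ones, and among the called members Mmp2, Mmp17, Adam33, Adamts9, Adamts10 and Adamtsl4. With each library's trend over gene length removed, all 8 calls held, and the part of that trend in the differences was not tested.

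Of the proteoglycan-cutting ADAMTS enzymes, which cleave versican and aggrecan, all 4 tested members had negative estimates and 1, Adamts9, fell. Adamts9 (chromosome 6, 92772699 to 92943492) measured 12.0, 17.6 and 23.6 FPKM untreated and 7.92, 7.97 and 6.72 FPKM treated. The treated values lay close together and below all untreated values, which differed among themselves by more than any treated sample differed from another. Its log2 change was -1.09 (standard error 0.21 with n = 3 per group, and limma adjusted p = 0.0171), 2.36-fold lower in mean FPKM. Leaving out untreated replicate 2 (0.0891) or flavonoids replicates 1, 2 or 3 (0.0666, 0.0522 and 0.0764) ended the call. So did no filter (0.0758) and replicate number as a block (0.0555), within 0.000382 to 0.0891 over its 25 alternatives.

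Adamts1 and Adamts5 are neighbours on chromosome 16 (85793827 to 85803113 and 85856173 to 85901828), 53.1 kb apart with no protein-coding gene between them. Adamts1, also known as an antiangiogenic protein, was by far the most abundant ADAMTS gene, with 308, 408 and 517 FPKM untreated and 289, 263 and 211 FPKM treated. Adamts5, a main aggrecanase of cartilage, measured 20.5, 23.1 and 38.3 FPKM and then 19.4, 16.9 and 11.2 FPKM. In both genes the highest treated sample was just under the lowest untreated sample, and untreated replicate 3 was the highest of all. Their log2 changes were -0.67 (95% interval -1.14 to -0.20) and -0.73 (-1.31 to -0.15), with limma adjusted p-values of 0.0746 and 0.109. Without untreated replicate 1 these were 0.016 and 0.0467, and with the length trend removed 0.0062 and 0.0182, at log2 changes of -0.59 and -0.58. Over 25 alternatives they ran from 0.00293 to 0.233 and from 0.0138 to 0.308.

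Adamts4 measured 5.58 ± 1.81 and 4.43 ± 1.08 FPKM with overlap, and Adamts15, under the limit for testing, measured 1.20 ± 0.735 and 0.374 ± 0.14 FPKM. Their protein substrates are also in the table: versican (Vcan) measured 6.15 ± 3.14 and 4.34 ± 1.73 FPKM (adjusted p = 0.511), and Acan and Bcan were listed at 0 in all samples.

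Of 3 tested other ADAMTS genes 1 fell. Adamts10, which encodes an enzyme that binds fibrillin microfibrils (chromosome 17, 33524204 to 33553782), measured 29.2, 31.3 and 39.0 FPKM untreated and 21.8, 22.9 and 20.4 FPKM treated. The groups were apart, and it fell by 0.58 on the log2 scale (standard error 0.13 with n = 3 per group, and limma adjusted p = 0.029). That call was lost without untreated replicate 2 (0.117) or flavonoids replicates 1, 2 or 3 (0.112, 0.0828 and 0.0935). It was also lost with no filter (0.0694), on the TPM scale (0.0575) and with replicate number as a block (0.0768), within 0.0041 to 0.117 over its 25 alternatives. Adamts7, a protease of the matrix protein COMP, had the opposite sign, at 7.49, 8.66 and 10.2 FPKM untreated and 12.6, 11.0 and 12.5 FPKM treated (adjusted p = 0.0949). It passed without untreated replicate 3 and in all 8 settings with the length trend removed. Adamts12, which cuts the same substrate, measured 1.16, 3.39 and 5.83 FPKM untreated and 1.31, 1.60 and 0.906 FPKM treated (adjusted p = 0.177), with a wide spread in the untreated group and overlap between groups.

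The procollagen N-proteinases trim the amino end of fibrillar procollagens. Neither tested member passed in limma or voom, and 1 (Adamts2) had an unadjusted p under 0.05. Adamts2, the main enzyme of this step, measured 14.6 ± 2.02 and 11.0 ± 1.13 FPKM (limma adjusted p = 0.127), Adamts14 2.41 ± 0.947 and 2.75 ± 0.423 FPKM (0.646), and Adamts3 was listed at 0.

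Adamtsl4, which encodes an ADAMTS-like protein of fibrillin microfibrils (chromosome 3, 95676201 to 95687917), was the 1 of 2 tested members of its class that fell. It measured 9.33, 11.3 and 13.8 FPKM untreated and 3.87, 4.75 and 5.91 FPKM treated, with a clear gap between groups. Its log2 change was -1.09 (standard error 0.18 with n = 3 per group, and limma adjusted p = 0.00992), 2.37-fold lower in mean FPKM. Without untreated replicate 2 or flavonoids replicate 1 its adjusted p was 0.0652 and 0.055, within 0.00145 to 0.0652 over its 25 alternatives. Adamtsl5 measured 14.0, 14.4 and 15.3 FPKM untreated and 16.9, 16.8 and 16.0 FPKM treated (log2 change 0.17, adjusted p = 0.344). Adamtsl3, under the limit for testing, measured 0.529 ± 0.133 and 0.134 ± 0.056 FPKM, and without the filter its limma adjusted p was 0.0485 (log2 change -0.43).

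**Figure D5:**
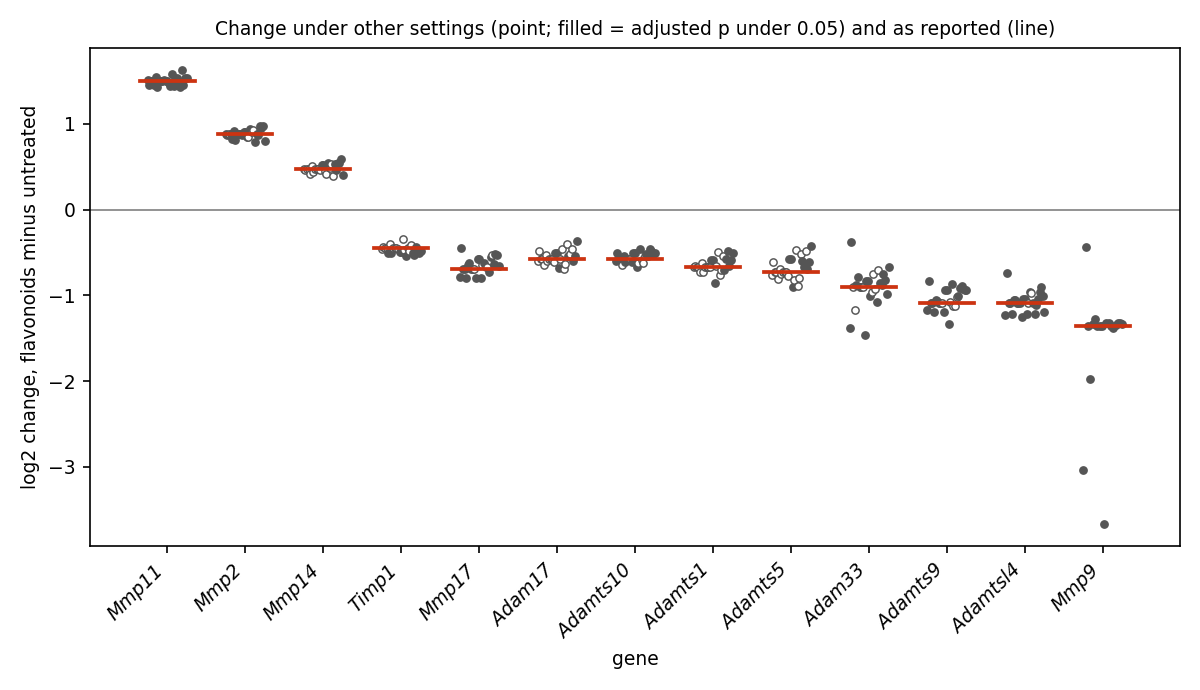
Log2 change of 13 members, flavonoids minus untreated, as reported (red line) and under each alternative that tested the gene (points, filled where adjusted p was under 0.05). Mmp11 is filled throughout at 1.43 to 1.62, while Mmp14, Timp1, Adam17, Adamts1 and Adamts5 keep their direction and hold filled and open points.

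Genes that act beside these proteases were read from 6 lists of 67 genes, of which 45 were tested, 2 rose and 9 fell. These are 4.44% and 20% of the tested genes, against 4.86% and 5.13% of all genes tested, and the median log2 change was -0.19, against -0.02. The lists were chosen with earlier results of these data known, so these shares only describe the genes picked. Ereg, counted among the 9, passed the filter on low values through the untreated group alone. Plasminogen activation, which feeds MMP activation, had Plau, the urokinase gene, down from 24.4 ± 1.33 to 13.4 ± 1.23 FPKM (limma adjusted p = 0.00591, a log2 change of -0.82). Its receptor gene Plaur rose from 3.72 ± 0.5 to 6.79 ± 1.14 FPKM (limma adjusted p = 0.0244). Urokinase RNA thus fell while that of its receptor rose.

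Reck, a membrane-anchored MMP inhibitor, fell from 13.4 ± 3.44 to 7.42 ± 0.956 FPKM (limma adjusted p = 0.037). It was the 1 call among 3 tested genes of its list, which also held Pcolce and Cst3. Among 10 tested activators and partners, Bsg, known as an inducer of MMPs, fell by 0.66 and Cav1, the caveolin of membrane pits that hold MT1-MMP, fell by 1.31 on the log2 scale (adjusted p = 0.0267 and 0.00232). The collagen-degrading cathepsin gene Ctsk rose from 23.3 ± 3.12 to 50.8 ± 3.93 FPKM (0.00353), the 1 call among 6 other matrix proteases.

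Among 10 tested matrix substrates Dcn, the decorin gene, fell from 671 ± 40.0 to 316 ± 86.6 FPKM (limma adjusted p = 0.0142). Of 11 tested shed membrane proteins 3 fell: Cx3cl1, a chemokine released by ADAM10 and ADAM17, from 41.6 ± 7.09 to 19.9 ± 0.654 FPKM (adjusted p = 0.00522), the Notch ligand gene Jag1 from 13.1 ± 3.36 to 7.33 ± 0.795 FPKM (0.0372) and the growth factor gene Ereg from 1.97 ± 0.505 to 0.855 ± 0.152 FPKM (0.0396). Ereg reached the mean of 1 FPKM through the untreated group alone. The counts of 2 and 9 were 3 and 12, 1 and 3, and 2 and 8 without untreated replicates 1, 2 and 3. Without flavonoids replicates 1, 2 and 3 they were 1 and 4, 2 and 5, and 1 and 5. With the length trend removed they were 5 and 12.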

How the data were processed

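The authors deposited 1 table of FPKM values per gene symbol for 6 samples. Per the submitters' processing notes, FastQC and HISAT2 were used with mouse build mm10; no source used here gives versions, a counting tool, an annotation or strand, so reads of overlapping genes cannot be assigned with certainty. The members, classes and lists were chosen with earlier results of these data known.

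All FPKM values of the 22235 genes above 0 were whole multiples of 1 fragment within 0.005 fragments, and fragment numbers are the smallest that meet this. A two-sided limma test (limma 3.58.1, R 4.3.3, variance trend on intensity) was run on log2 of FPKM plus 1 where the mean over 6 samples reached 1 FPKM; fold changes on that scale understate those of low genes. An exact permutation test of 3 against 3 cannot go below 0.1 and was not used. Libraries of a group differed beyond counting error (chi-square per degree of freedom 6.78 to 132). Other settings were pseudocounts, filters, scalings, variance estimates, a replicate block, voom on fragments, removal of each library's trend over implied gene length (loess, span 0.5) and leaving out each library. The last 2 together were added after seeing the data. The rule for per-sample values took called members, TIMPs and tested members with a mean of 20 FPKM or more, and for related genes those called, at most 5 a list. Not every called related gene is reported here. Other members given in detail (Mmp3, Mmp8, Mmp13, Adam8, Adamts7, Adamts12, Adamts15, Adamtsl3, Adamtsl5) and Furin, Vcan, Acan and Bcan were picked after their values were seen. Positions are from GENCODE M21 (GRCm38).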

Additional observations from a re-analysis of the deposited data

How the results depend on the processing

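Of 466 values of 19 followed members under 25 other settings, 384 kept their direction and side of the threshold, 31 were no longer past it, 47 were newly past it and 4 changed direction. Those 4 were Adam9, whose log2 change ran from -0.29 to 0.070 over the libraries left out in turn (0.023 without untreated replicate 3 and 0.070 without flavonoids replicate 3), and was 0.028 and 0.094 in the same order with the length trend also removed. With a pseudocount of 5, 0 members fell 2-fold. Without a filter 317 genes were higher and 324 lower, and 1 and 4 related genes; the filter changes how many genes are tested.

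With the length trend removed 4 members were higher and 10 lower, with 1375 and 1139 of all genes and 5 and 12 related genes. With the replicate block added these were 4 and 10, 1092 and 904, and 4 and 12. The cause was not tested. Leaving out each library gave 1 to 4 members higher, 0 to 10 lower, 1 higher 2-fold and 0 to 4 lower 2-fold; 64 to 875 genes higher and 76 to 827 lower; 1 to 3 related genes higher and 3 to 12 lower. With the trend also removed, a setting chosen after seeing the data, these were 4 members higher, 7 to 15 lower (10 without untreated replicate 1, 11 and 10 without flavonoids replicates 1 and 2), 1 higher 2-fold and 0 to 3 lower 2-fold. Genes higher then numbered 702 to 1277 (1230 and 1057 without untreated replicates 1 and 3, 981 and 996 without flavonoids replicates 1 and 2) and genes lower 598 to 1241 (1007, 883 and 904 without untreated replicates 1 and 3 and flavonoids replicate 2). Related genes were 2 to 5 higher and 10 to 15 lower. Whole fragments were solved at a tolerance of 0.005 fragments only, and no other tolerance was run.

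Same-numbered samples of the groups had correlations of -0.14, -0.12 and -0.20. With 3 samples per group and untreated libraries that differ in length trend, these cannot settle whether equal numbers share a culture or day. The labels do not say so, and the main fit takes the numbers only as names. With the replicate block 2 members were lower (Adamtsl4 and Mmp9), Mmp2 and Mmp11 stayed higher, and Mmp17, Adam33, Adamts9 and Adamts10 had limma adjusted p-values of 0.0515, 0.108, 0.0555 and 0.0768. In that fit 220 genes were higher and 237 lower, with 1 and 5 related genes. Members under 1 FPKM rest on few fragments, which limits what can be said of them.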
